A study of Mus musculus with 6 samples.

Results

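Iron and heme handling was examined in mouse liver through 10 genes of 24411 in the deposited table, chosen by name: Alas1 for heme synthesis, Hmox1 and Blvrb for heme breakdown, Fth1 and Ftl1 for iron storage, Trf, Tfrc and Slc40a1 for iron carriage, uptake and export, and Hamp and Hamp2 for systemic control. RNA-seq had been performed on livers of 3 p62+/+ mice and 3 p62S351E/+ mice at P19 (postnatal day 19). The p62S351E/+ mice carried 1 allele of Sqstm1, the gene for the autophagy receptor p62, in which Ser351 was changed to Glu to mimic phosphorylation; the other allele was wild type, and the p62+/+ mice carried 2 wild-type alleles. The mutation had been made by prime editing in RENKA4 embryonic stem cells, which derive from C57BL/6N, and all mutants descended from the sperm of a single male chimera of low chimerism. The study described the mutants as growth retarded with a mildly enlarged liver at ages before P19. At those ages it also reported serum signs of malnutrition and dehydration. It proposed that thickened keratin in the esophagus and forestomach impaired feeding. The part of feeding state in the values given here was not tested. Phosphorylated p62 is known to hold KEAP1 and so to release the transcription factor NRF2, and the comparison of genotypes asks how the liver transcriptome differs when 1 allele mimics that state.

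The liver is the body's main iron store and the source of both plasma transferrin and the hormone hepcidin. Heme is built by a mitochondrial and cytosolic pathway whose first enzyme is ALAS1 in hepatocytes, and it is opened by heme oxygenase to release iron, carbon monoxide and biliverdin. The iron is held inside ferritin shells of heavy and light chains, enters cells through the transferrin receptor and leaves through ferroportin, which hepcidin removes from the cell surface. Iron regulatory proteins bind hairpins called iron-responsive elements in several of these mRNAs when iron is scarce, which blocks translation where the hairpin lies before the coding sequence and stabilises the Tfrc mRNA where it lies after it. Hmox1, Blvrb, Fth1 and Ftl1 are also known as NRF2 targets.

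All 10 genes passed the filter on low counts and were tested within the whole table, 5945 genes in all. Total expected counts per liver lay between 8696712 and 10341622. Only 134911 to 315436 of them fell outside the entries Lars2, Mir6236 and Rn45s, the last a ribosomal RNA precursor. The lowest number was in p62S351E/+ mouse 1. The 10 genes held 1486 to 3667 counts per library, and the floor of 3 counts corresponded to 2.32 to 5.71 normalized counts (counts scaled by edgeR's TMM factors to a common library size). Counting precision is therefore high for Trf and the ferritins and low for Hmox1. The libraries also stood apart in ways that the genotype does not describe. Hepatocyte markers (8 of 8 present) summed to 11555, 10759 and 11365 normalized counts in p62+/+ mice, against 17137, 26367 and 12129 in p62S351E/+ mice, so the labelled tissue's markers were high in all 6 libraries. Markers of brain (10 of 10 present) summed to 1930, 1991 and 1906 in p62+/+ mice, to 36.2 and 39.1 in p62S351E/+ mice 1 and 2, and to 1834 in p62S351E/+ mouse 3. Xist, the RNA of the inactive X chromosome, had 56.8, 1168 and 925 normalized counts in p62+/+ mice, against 1.9, 0 and 1191 in p62S351E/+ mice, and 4 Y-linked genes together ran the opposite way. Neither the labels nor the methods give the sex of these mice.

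Sequences were read first for the hairpins through which iron regulatory proteins act on some of these mRNAs. The place of a hairpin separates mRNAs that these proteins can stabilise from those whose translation they block. Other ways in which iron can alter a transcript level are not covered by this search. A hairpin was defined as a C, 5 stem bases, the loop CAGTGN and 5 bases that pair with the stem, and is shown 5′ to 3′ with 6 bases before it, 7 after it and the loop in capitals. Of the 10 genes, 4 carried it in the GENCODE transcripts of GRCm38, the build of mm10. Fth1, Ftl1 and Slc40a1 had 1 each in the 5′ UTR, at chr19:9982732-9982761 on the plus strand, chr7:45459778-45459807 on the minus strand and chr1:45925464-45925493 on the minus strand.
Fth1: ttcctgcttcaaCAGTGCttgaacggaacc
Ftl1: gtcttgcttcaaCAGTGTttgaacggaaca
Slc40a1: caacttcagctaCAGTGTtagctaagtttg
Tfrc had 4 in its 3′ UTR, all on the plus strand of chromosome 16, at chr16:32631219-32631248, chr16:32631598-32631627, chr16:32631663-32631692 and chr16:32631710-32631739 in the order below.
Tfrc element 1: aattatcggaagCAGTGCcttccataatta
Tfrc element 2: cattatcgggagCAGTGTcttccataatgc
Tfrc element 3: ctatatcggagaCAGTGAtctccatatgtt
Tfrc element 4: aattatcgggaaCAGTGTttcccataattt
Such a hairpin was found in the 5′ UTR of 0.142% and in the 3′ UTR of 0.591% of 21842 genes searched. The other 6 genes held no match to this pattern. The read counts measure mRNA and not the translation that a hairpin in the 5′ UTR controls.

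Among the 10 genes, Blvrb alone was differentially expressed, rising 4.83-fold in p62S351E/+ livers. It was called at an adjusted p below 0.05 (Benjamini-Hochberg over all genes tested) and an absolute log2 fold change above 1, by edgeR's quasi-likelihood test. Over all genes tested, 0.841% were called higher and 0.0841% lower. Without the correction, 4 of the 10 genes were higher and 1 was lower at p below 0.05, where 9.02% and 5.55% of all genes were. The p62S351E/+ values lay wholly above the p62+/+ values for 4 genes (Blvrb, Ftl1, Hmox1 and Tfrc), as they did for 12% of all genes, and wholly below for none, as they did for 14.7% (26.7% in either direction). The median log2 fold change was 0.43 for the 10 genes and -0.03 for all genes. Scaled by library size alone, both medians fell, to -0.28 and -0.68, so the 10 genes lay above all genes by 0.46 in the first case and by 0.40 in the second. Without p62S351E/+ mice 1 and 2 the median of the 10 genes was 0.13.

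**Figure D1:**
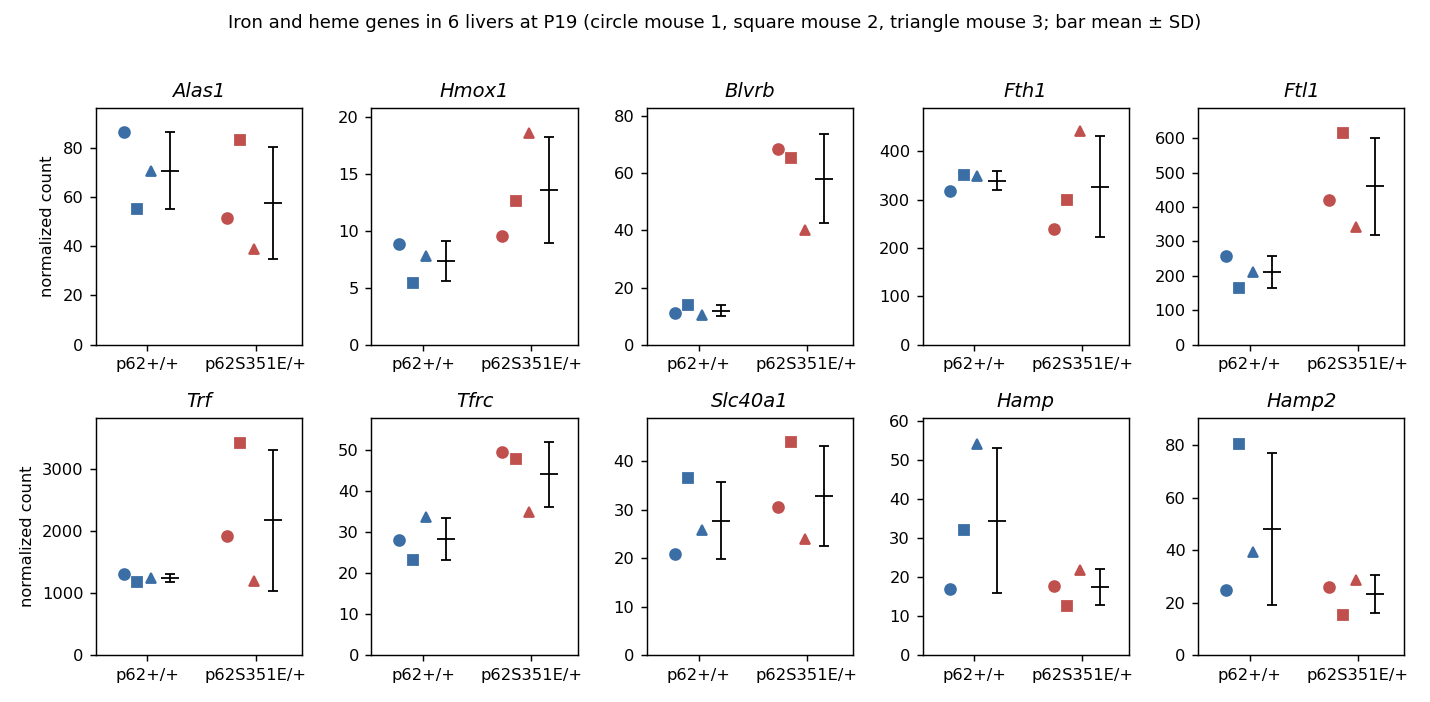
Normalized counts (vertical axes, starting at 0) of the 10 iron and heme genes in 3 p62+/+ and 3 p62S351E/+ livers, with each mouse as a symbol and the group mean ± SD beside it. The Blvrb values of the mutants, 40.3 to 68.6, lie far above the 10.4 to 14.0 of the p62+/+ mice, while the groups overlap for Alas1, Fth1, Trf, Slc40a1, Hamp and Hamp2.

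Heme synthesis was represented by Alas1 (chromosome 9, 106233455 to 106248654), the rate-limiting enzyme in liver, which heme itself represses. It had 86.7, 55.1 and 70.8 normalized counts in p62+/+ mice, against 51.4, 83.2 and 38.7 in p62S351E/+ mice. The ranges overlapped widely, and mutant mouse 2 lay close to the highest p62+/+ mouse. Its log2 fold change was -0.30 (SE 0.32, 95% interval -1.02 to 0.42, adjusted p = 0.648 by edgeR), so a fall of up to 1.02 or a rise of up to 0.42 on the log2 scale could not be told from no difference. Of 13 genes of heme synthesis, 7 were tested and none was called (5 had a log2 fold change above 0; median 0.53). Without mutants 1 and 2, 6 of 11 were above 0 with a median of 0.09, and with the brain markers as a covariate 3 of 7 were, with a median of -0.15. The 2 others with the smallest unadjusted p were Fech and Slc25a39. Fech, the ferrochelatase that inserts iron into protoporphyrin, had 13.6, 13.2 and 12.1 normalized counts in p62+/+ mice, against 40.0, 36.5 and 17.8 in mutants (log2 fold change 1.25, SE 0.34, adjusted p = 0.170 by edgeR). The mutants were above all p62+/+ mice, and mutant mouse 3 was nearest to them. With the brain covariate the Fech estimate was 0.44 (adjusted p = 0.970). Slc25a39, a mitochondrial carrier of glutathione, had 14.4, 19.4 and 17.3 against 22.9, 37.8 and 36.4 normalized counts (log2 fold change 0.93, SE 0.28, adjusted p = 0.217). The enzymes at the start and the end of the pathway thus had fold changes of opposite sign, neither of which passed the test.

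Heme breakdown held the largest difference among the 10 genes. Blvrb (chromosome 7, 27447978 to 27466144, plus strand) encodes biliverdin reductase B, a flavin reductase that also reduces the biliverdin isomers other than the one heme oxygenase makes. It had 11.2, 14.0 and 10.4 normalized counts in p62+/+ mice, against 68.6, 65.5 and 40.3 in p62S351E/+ mice. These values rest on 14, 18 and 12 expected counts against 36, 52 and 52. The groups were far apart, and the 2 mutants low in brain transcripts were higher than mutant mouse 3. The log2 fold change was 2.27 (SE 0.29, 95% interval 1.61 to 2.93, adjusted p = 0.0114 by edgeR). Without p62S351E/+ mice 1 and 2 it was 1.76, with every library high in brain transcripts but only 1 mutant and no mutant replicate. Without mouse 3 it was 2.48 (adjusted p = 6.33e-05). With the Xist level as a covariate it was 2.01 (adjusted p = 0.0364), and with the brain markers as a covariate it was 1.74 (adjusted p = 0.0371). Without p62+/+ mouse 1, 2 or 3 the log2 fold change was 2.24, 2.42 and 2.19, about as large as with all mice, but the adjusted p was 0.0883, 0.0607 and 0.0738, so the call was lost. It was also lost when libraries were scaled by their size alone (log2 fold change 1.52, adjusted p = 0.417), although Blvrb still lay 2.20 above the median of all genes under that scaling.

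Blvrb was also set against the hepatocyte markers, whose sum was higher in mutants 1 and 2. The rise of the sum there came mostly from Alb, Apob and Cps1, while Apoa1, also a large part of it, had a log2 fold change of -0.04. The list did not move as one, although 6 of its 8 genes had a log2 fold change above 0. Cyp3a11 had 305, 387 and 371 normalized counts in p62+/+ mice, against 211, 170 and 130 in mutants (log2 fold change -1.06, not called). Ttr and Apoa1 were below every p62+/+ mouse in mutant 1. Per 1000 summed counts of the 8 hepatocyte markers, Blvrb had 0.973, 1.30 and 0.912 counts in p62+/+ mice, against 4.0, 2.49 and 3.32 in p62S351E/+ mice. The groups did not overlap, and mouse 3, whose hepatocyte marker sum was near that of the p62+/+ mice, lay among the other mutants. In the test over all genes, scaling to the hepatocyte markers gave a log2 fold change of 1.61 for Blvrb with an adjusted p of 0.191 by edgeR, so the call was lost. The exact permutation test gave p = 0.1, the smallest that 3 against 3 allows (adjusted p = 0.3 over the 6 exact tests made on ratios and sums of these genes). In whole liver, more cells of a type cannot be told apart from more RNA per cell. The genes whose levels followed Blvrb most closely over the 6 libraries were Esd (S-formylglutathione hydrolase, Pearson r = 0.998 of log2 normalized counts), Cyp2d26 (a cytochrome P450, r = 0.996) and Ugt2b35 (a UDP-glucuronosyltransferase, r = 0.995). This is a description over 6 points that share the genotype split. All 3 had been called higher in the same test, with log2 fold changes between 1.26 and 3.26.

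Hmox1 (chromosome 8, 75093621 to 75100589), the inducible heme oxygenase and the best known NRF2 target of heme breakdown, was scarce in these libraries. It had 8.83, 5.43 and 7.77 normalized counts in p62+/+ mice, against 9.52, 12.6 and 18.6 in p62S351E/+ mice. The underlying expected counts were 11, 7 and 9 against 5, 10 and 24. The ranges nearly touched, and mutant mouse 3 was the highest. The estimated log2 fold change was 0.91 (SE 0.39, 95% interval 0.01 to 1.81), with an unadjusted p of 0.0483 and an adjusted p of 0.338 by edgeR. Between mutants, Hmox1 was highest where Blvrb was lowest. Whether the fold changes of Blvrb and Hmox1 differed was not tested.

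Of 15 listed genes for breakdown, scavenging and transport of heme, 13 were in the table and 8 were tested. Blvrb was the only one called, 7 of the 8 had a log2 fold change above 0, and the median was 0.87. Without mutants 1 and 2, 7 of 10 were above 0 with a median of 0.36. Ugt1a1, which conjugates bilirubin for excretion into bile, had 91.0, 113 and 99.9 normalized counts in p62+/+ mice, against 215, 250 and 175 in p62S351E/+ mice. Every mutant was well above every p62+/+ mouse. Its log2 fold change was 1.07 (SE 0.22) with an adjusted p of 0.0780 by edgeR, the smallest among the genes of these pathways that were not called. The Ugt1a genes share their 3′ exons, so reads there can be divided among them. Pgrmc1, a heme-binding membrane protein, had 72.2, 91.6 and 96.7 against 131, 215 and 119 normalized counts (log2 fold change 0.84, adjusted p = 0.242).

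Iron storage was measured through both ferritin chains. Ftl1 (chromosome 7, 45457944 to 45459884), the light chain that helps the iron core form, had 258, 165 and 210 normalized counts in p62+/+ mice, against 421, 615 and 343 in p62S351E/+ mice. The lowest mutant, mouse 3, was above the highest p62+/+ mouse. The log2 fold change was 1.12 (SE 0.28, 95% interval 0.47 to 1.77), a 2.18-fold difference with an unadjusted p of 0.00381 and an adjusted p of 0.133 by edgeR. Without p62S351E/+ mouse 3 it was 1.30 (adjusted p = 0.00232) and was called. Without mice 1 and 2, which leaves 1 mutant, it was 0.72. With the brain markers as a covariate it was 0.70 (adjusted p = 0.762 by edgeR).

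Fth1 (chromosome 19, 9980598 to 9985098), the heavy chain with the ferroxidase centre, had 318, 352 and 350 normalized counts in p62+/+ mice, against 240, 299 and 443 in p62S351E/+ mice. The p62+/+ mice lay close together, and the mutants fell on both sides of them, with the 2 low in brain transcripts below and mouse 3 above. This amounted to a log2 fold change of -0.05 (SE 0.26, 95% interval -0.64 to 0.54, adjusted p = 0.935), and its sign depended on which mutants were included, from -0.34 without mouse 3 to 0.39 without mice 1 and 2. Among the genes most like Fth1 over the 6 libraries were Chmp4b (r = 0.979) and Eif2s3x (r = 0.976), and neither was called.

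Within each library, where scaling does not enter, the ratio of Fth1 to Ftl1 counts was 1.23, 2.14 and 1.67 in p62+/+ mice, against 0.570, 0.486 and 1.29 in p62S351E/+ mice. This ratio, which is one of counts and not of counts per length, was above 1 in all 3 p62+/+ mice and below 1 in mutants 1 and 2, while mutant 3 fell inside the p62+/+ range. On the log2 scale the ratio was 0.71 ± 0.40 (SD, n = 3) against -0.49 ± 0.76 (SD, n = 3), and the difference of -1.21 gave p = 0.2 by the exact permutation test (two-sided, adjusted p = 0.36 over 6). Ftl1 reads are not unique to it, since 69.9% of the 75-base runs of its transcript also occur in other annotated genes, which are 6 in number, Ftl1-ps1 among them, and have no row in the table. For Fth1 the share was 3.9%. Both mRNAs carry the hairpin printed above in the 5′ UTR. Of the 6 listed genes for iron storage 5 were tested and none was called (median log2 fold change 0.19, and 0.39 without mutants 1 and 2). Pcbp2, an iron chaperone that delivers to ferritin, had a log2 fold change of 0.68 (adjusted p = 0.252), and Ncoa4, the receptor that takes ferritin to autophagy, had one of 0.19 (adjusted p = 0.763).

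**Figure D2:**
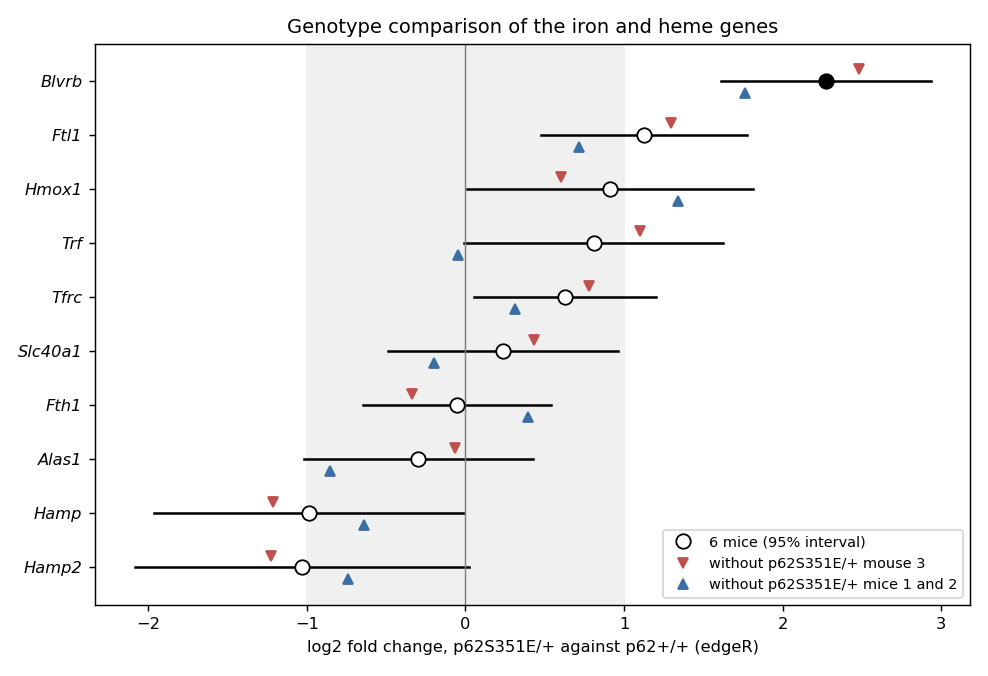
Log2 fold changes of the 10 genes (horizontal axis, p62S351E/+ against p62+/+, edgeR), with the estimate from all 6 mice and its 95% interval as circles and lines (filled where called) and the estimates after leaving out mutants as triangles. Grey marks changes within 1 on the log2 scale. Blvrb lies above 1 in each of the 3 estimates (2.27, 2.48 and 1.76), Hmox1 is higher and Trf, Ftl1 and Tfrc are lower when only mutant mouse 3 is kept.

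Iron carriage was measured through Trf (chromosome 9, 103204001 to 103230444), the plasma transferrin that hepatocytes secrete. By group mean per kilobase of transcript, Trf was the most abundant of the 10 mRNAs in both genotypes. It had 1308, 1178 and 1242 normalized counts in p62+/+ mice, against 1916, 3426 and 1194 in p62S351E/+ mice. Mutants 1 and 2 were above the p62+/+ range, and mutant 3 was inside it. The log2 fold change was 0.81 (SE 0.36, 95% interval -0.01 to 1.63, adjusted p = 0.348 by edgeR). It was 1.10 without mouse 3 (adjusted p = 0.00525, called) and -0.05 without mice 1 and 2, which leaves 1 mutant. Of the 75-base runs of the Trf transcript, 78.6% also occur in the annotated gene Gm20425, which has no row in the table.

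Trf moved with the summed hepatocyte markers from library to library. Per 1000 summed hepatocyte marker counts it was 113, 110 and 109 in p62+/+ mice, against 112, 130 and 98.4 in p62S351E/+ mice, with p = 0.8 by the exact permutation test of the difference (two-sided). Per 1000 counts of Alb, the albumin gene and itself 1 of the 8 markers, it was 210, 206 and 193 against 197, 209 and 183. Mutant 2, which had by far the most Trf on the common scale, stood out much less on either of these scales. Ftl1 per 1000 summed hepatocyte marker counts was 22.3, 15.3 and 18.5 against 24.6, 23.3 and 28.3, still without overlap (p = 0.1, exact permutation test, adjusted p = 0.3 over 6). In the test over all genes, scaling to the hepatocyte markers gave Ftl1 a log2 fold change of 0.44 (adjusted p = 0.360 by edgeR). Under that scaling Ftl1 lay 1.06 above the median of all genes. The genes most like Trf over the 6 libraries were the plasma protease inhibitor Pzp (r = 0.999), the chaperone Dnajc3 (r = 0.994) and Fah, the last enzyme of tyrosine breakdown (r = 0.993).

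**Figure D3:**
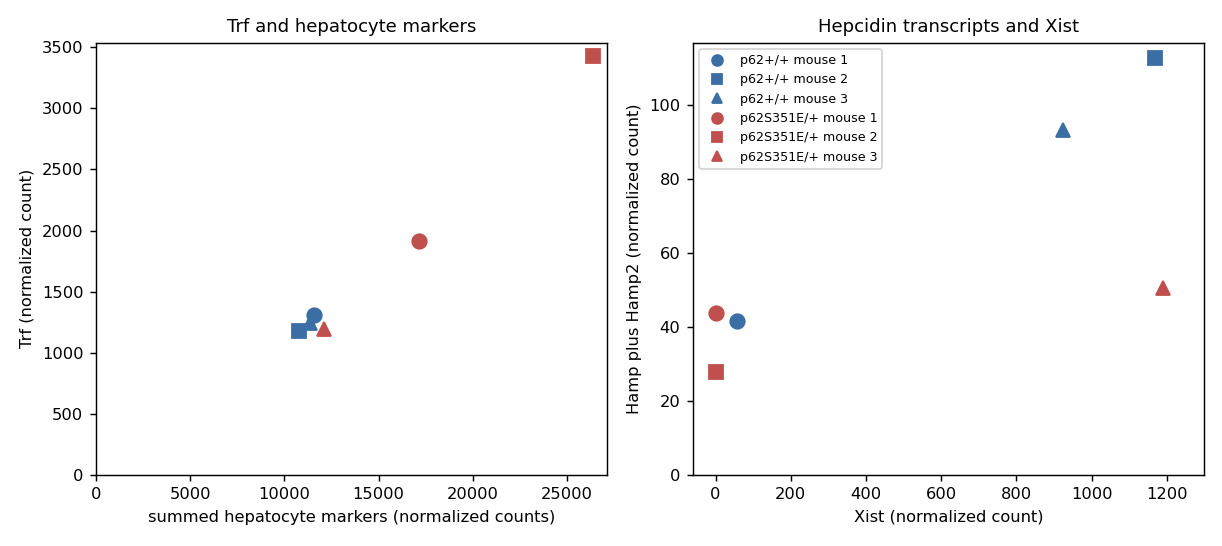
Left, Trf against the summed counts of 8 hepatocyte markers, and right, Hamp plus Hamp2 against Xist, in normalized counts, each symbol being 1 of 6 livers. Trf follows the hepatocyte markers, with p62S351E/+ mouse 2 at 26367 and 3426, and the sum of both hepcidin transcripts is lowest, 27.7 to 43.8, in the 3 libraries low in Xist.

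Iron uptake was measured through Tfrc (chromosome 16, 32608920 to 32632794), the receptor for transferrin, whose mRNA carries the 4 hairpins printed above. It had 28.1, 23.3 and 33.7 normalized counts in p62+/+ mice, against 49.5, 47.9 and 34.9 in p62S351E/+ mice. Mutants 1 and 2 were clearly higher, whereas mutant 3 was barely above the highest p62+/+ mouse. Between genotypes the log2 fold change was 0.63 (SE 0.25, 95% interval 0.05 to 1.20), with an unadjusted p of 0.0355 and an adjusted p of 0.310 by edgeR. Its sign turned when libraries were scaled by size alone (-0.09), below which the median of all genes lay at -0.68. The ratio of Tfrc to Fth1, 2 mRNAs that iron regulatory proteins treat in opposite ways, was 0.0884, 0.0662 and 0.0963 in p62+/+ mice, against 0.206, 0.160 and 0.0787 in p62S351E/+ mice. It was above the p62+/+ range in mutants 1 and 2 and within it in mutant 3 (log2 difference 0.74, p = 0.3 by the exact permutation test, two-sided).

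Markers of red blood cell precursors, which are rich in transferrin receptor, summed to 277, 219 and 314 normalized counts in p62+/+ mice, against 236, 218 and 119 in p62S351E/+ mice (10 of 12 listed genes in the table, 1 of them, Hbb-bs, at 0 everywhere). Among the mutants the sum was higher in mice 1 and 2, which had more Tfrc, than in mouse 3, but no mutant exceeded the highest p62+/+ mouse. Globin genes carry most of this sum, and the near-identical Hba-a1 and Hba-a2 were each at 0 in some libraries. Of the 6 erythroid genes tested 4 had a log2 fold change above 0 and none was called, among them Alas2, the erythroid enzyme of heme synthesis, at 0.16. The 4 include Hbb-bt and Hbb-b2, which had identical values in every library (0.24 each) and so are 1 signal. Hbb-b1 and Hba-a1, which carry much of the sum, were below 0 (-0.26 and -1.81). The part of erythroid cells in the Tfrc values was not tested. Kupffer cell markers, which stand for the macrophages that recycle heme iron, summed to 124, 102 and 124 against 162, 160 and 125 (11 of 11 present). This sum was highest in mutants 1 and 2, as Tfrc and Trf were, but its genes did not move as one. Of the 6 Kupffer cell genes tested 4 had a log2 fold change above 0 and none was called. Clec4f (-0.55) and C1qb (-0.14) were below 0, and for Clec4f every mutant was below every p62+/+ mouse. Marco, which was not tested, had at most 2.59 normalized counts in p62+/+ mice and at least 12.6 in mutants. The part of Kupffer cells in the Tfrc and Trf values was not tested.

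Iron export was measured through Slc40a1 (chromosome 1, 45908068 to 45926523), which encodes ferroportin, the only known cellular iron exporter. It had 20.9, 36.5 and 25.9 normalized counts in p62+/+ mice, against 30.5, 44.1 and 24.0 in p62S351E/+ mice. The ranges overlapped almost fully. The log2 fold change was 0.24 (SE 0.32, 95% interval -0.49 to 0.96, adjusted p = 0.719), and it turned to -0.20 without mutants 1 and 2.

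Of 20 listed genes for uptake, carriage and export 10 were tested, none was called, 8 were above 0 and the median log2 fold change was 0.59. Without mutants 1 and 2, 5 of 11 were above 0 with a median of -0.02, with the brain covariate 4 of 10 were, also with a median of -0.02, and with library size as the only scaling 3 of 10 were. Tfr2, the hepatocyte receptor that senses iron-laden transferrin, had 87.5, 71.4 and 82.9 normalized counts in p62+/+ mice, against 122, 157 and 89.9 in mutants (log2 fold change 0.61, adjusted p = 0.321 by edgeR). As with Tfrc and Trf, mutant 3 was the lowest of the mutants. Cp, the plasma ferroxidase ceruloplasmin, had a log2 fold change of 0.76 (adjusted p = 0.365).

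Hepcidin in mice is encoded by Hamp (chromosome 7, 30942368 to 30944032, minus strand) and its neighbour Hamp2 (30922372 to 30924681, minus strand), and the established iron hormone is the product of Hamp. Because both were counted and their transcripts are 88.8% identical over the alignment, their promoters are shown, as the 140 bases before the RefSeq start on GRCm38.p6 (chr7:30944030-30944169 and chr7:30924182-30924321). Capitals mark GGCGCC, the core of the BMP-responsive element of hepcidin, and TTCNNNGAA, the letters of a STAT site.
Hamp: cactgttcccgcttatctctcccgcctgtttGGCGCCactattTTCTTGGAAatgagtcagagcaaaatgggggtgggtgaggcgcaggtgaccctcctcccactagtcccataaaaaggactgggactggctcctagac
Hamp2: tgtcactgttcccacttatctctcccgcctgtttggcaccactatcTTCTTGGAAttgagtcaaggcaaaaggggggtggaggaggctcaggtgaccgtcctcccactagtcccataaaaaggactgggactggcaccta
The 2 stretches were 87.4% identical over 143 aligned columns. GGCGCC began at -109 in Hamp and was not among these letters in Hamp2, and TTCNNNGAA began at -97 in Hamp and at -94 in Hamp2. Over all 32851 RefSeq promoter windows of 300 bases, searched on both strands, 11.9% held GGCGCC and 8.3% held TTCNNNGAA. For 7 of the 10 genes a window was available, and none of the 7 held TGACNNNGC, the core letters of the antioxidant response element, which 12.4% of all windows did. Only the 300 bases around a start were searched, so an element farther away could not have been found. Hmox1, Trf and Slc40a1 had no window. Blvrb held the looser TGANNNNGC at -69, as did 41.3% of all windows in some position.

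Hamp had 17.01, 32.1 and 54.1 normalized counts in p62+/+ mice, against 17.7, 12.6 and 21.7 in p62S351E/+ mice. Hamp2 had 24.7, 80.4 and 39.2 in p62+/+ mice, against 26.1, 15.1 and 28.7 in p62S351E/+ mice. Only 3.9% of the 75-base runs of Hamp and 3.6% of those of Hamp2 occur in the other gene. For both, p62+/+ mouse 1 lay within the mutant range and the other 2 p62+/+ mice lay above it. The log2 fold changes were -0.99 for Hamp (SE 0.43, 95% interval -1.96 to -0.01, adjusted p = 0.340 by edgeR) and -1.03 for Hamp2 (SE 0.45, 95% interval -2.09 to 0.02, adjusted p = 0.353). They were -1.22 and -1.23 without mutant mouse 3, and -0.64 and -0.74 without mice 1 and 2. The estimates nearest to 0 came from leaving out 1 p62+/+ mouse, at -0.49 for Hamp without mouse 3 and -0.43 for Hamp2 without mouse 2. None of the other 8 genes had a log2 fold change below -0.30.

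The sum of both transcripts, which does not depend on how reads were divided between them, was 41.7, 113 and 93.3 in p62+/+ mice, against 43.8, 27.7 and 50.4 in p62S351E/+ mice (p = 0.3 by the exact permutation test, two-sided). The 3 libraries low in Xist and high in Y-linked transcripts, p62+/+ mouse 1 and p62S351E/+ mice 1 and 2, had 41.7, 43.8 and 27.7, and the 3 libraries high in Xist had 113, 93.3 and 50.4. With Xist as a covariate the log2 fold changes were -0.54 for Hamp (adjusted p = 0.683 by edgeR) and -0.57 for Hamp2 (adjusted p = 0.689). With 1 Xist-low p62+/+ mouse and 1 Xist-high mutant, the part of Xist status in the hepcidin values was not tested beyond this fit. The share of Hamp in the sum was 40.8%, 28.6% and 58.0% in p62+/+ mice, against 40.5%, 45.5% and 43.1% in p62S351E/+ mice, so the mutant shares lay within the p62+/+ range.

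Of 26 listed genes for hepcidin and its regulation 24 were in the table and 14 were tested, with none called, 9 above 0 and a median log2 fold change of 0.33. Tmprss6, the protease matriptase-2 that cleaves hemojuvelin and so lowers hepcidin, had 28.9, 41.1 and 33.7 normalized counts in p62+/+ mice, against 59.0, 78.1 and 55.8 in p62S351E/+ mice. All 3 mutants were above all p62+/+ mice (log2 fold change 0.89, SE 0.24, unadjusted p = 0.00551, adjusted p = 0.158 by edgeR). Fgl1, a secreted hepatocyte protein that lowers hepcidin by binding BMP6, had 62.6, 62.9 and 57.0 against 95.2, 188 and 78.2 normalized counts (log2 fold change 0.98, adjusted p = 0.245), and its estimate was 0.36 with the brain covariate.

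Per kilobase of principal transcript, the order of the 10 mRNAs in p62+/+ livers was Trf (483 ± 25.3 normalized counts per kilobase, SD, n = 3), Fth1 (366 ± 20.5), Ftl1 (218 ± 48.1), Hamp2 (110 ± 66.1), Hamp (84.0 ± 45.5), Alas1 (22.9 ± 5.11), Blvrb (11.5 ± 1.83), Slc40a1 (8.24 ± 2.37), Tfrc (5.80 ± 1.06) and Hmox1 (4.68 ± 1.11). Carrier and storage mRNAs thus stood well above the enzymes and membrane transporters. The p62+/+ ranges of neighbours in this order were apart for Trf and Fth1, Fth1 and Ftl1, Hamp and Alas1, and Alas1 and Blvrb, and overlapped for the rest. In p62S351E/+ livers the mean of Ftl1 (475 ± 145) was above that of Fth1 (352 ± 113) and the mean of Blvrb (56.5 ± 15.1) had rank 4 in place of rank 7, but the order was the reverse in mutant 3 for Ftl1 and Fth1 and for Blvrb and Hamp2 (39.2 against 65.6). Fth1 (477) was also above Trf (464) in mutant 3. Hmox1 (8.65 ± 2.94) and Tfrc (9.01 ± 1.64) overlapped in the mutants, and Hmox1 was above both Tfrc and Slc40a1 in mutant 3.

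**Figure D4:**
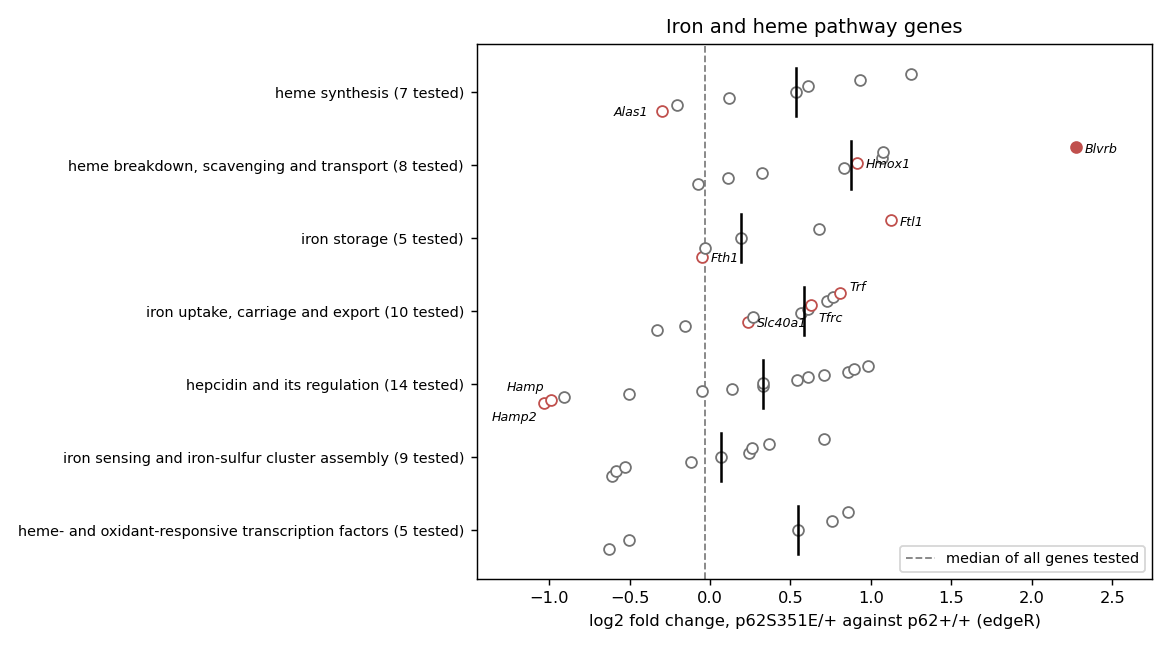
Log2 fold changes (horizontal axis, p62S351E/+ against p62+/+, edgeR) of the tested genes of 7 iron and heme lists, with the 10 genes in red, others in grey, called genes filled and each list's median as a vertical line. Blvrb at 2.27 is the only filled symbol, and the list medians lie between 0.07 and 0.87, to the right of the dashed median of all genes at -0.03.

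The remaining lists held no called gene. Of 17 genes for iron sensing and iron-sulfur cluster assembly 9 were tested, 5 were above 0 and the median log2 fold change was 0.07, and 0.23 without mutants 1 and 2. Aco1, which is iron regulatory protein 1 when it lacks its cluster, had 24.1, 27.9 and 25.9 normalized counts in p62+/+ mice, against 51.4, 37.8 and 38.7 in p62S351E/+ mice (log2 fold change 0.71, SE 0.23, adjusted p = 0.241 by edgeR). The mutants did not overlap with the p62+/+ mice. Hspa9, the mitochondrial chaperone of cluster transfer, had a log2 fold change of 0.37 (adjusted p = 0.522). The list of transcription factors that respond to heme and oxidants had 7 genes. It included Keap1, whose product is not a transcription factor but a ubiquitin ligase adaptor for NRF2. Of the 7 genes 5 were tested, 3 were above 0 and the median was 0.55. Nfe2l2, the gene for NRF2, had a log2 fold change of -0.63, Nfe2l1 one of -0.50 and Keap1 one of 0.76. Bach1, the heme-sensing repressor of Hmox1, had 24.1, 10.1 and 10.4 against 24.8, 23.9 and 31.8 normalized counts (log2 fold change 0.86, adjusted p = 0.353), and Mafg, a small MAF partner of NRF2 and BACH1, had a log2 fold change of 0.55 (adjusted p = 0.421). Over all 89 pathway genes in the table other than the 10, 47 were tested, none was called, and 33 had a log2 fold change above 0, where 2856 of 5945 genes did, but 15 of 47 did so with scaling by library size alone, where 35 lay above the median of all genes. With that scaling 6 of the 7 list medians were below 0 and all 7 were above the median of all genes. Without p62S351E/+ mice 1 and 2, 36 of 56 were above 0. At an unadjusted p below 0.05 by edgeR, 11 of the 47 were higher and 0 were lower, where 9.02% and 5.55% of all genes were. By limma-voom 1 of the 47, Ugt1a1, was called (adjusted p = 0.0105).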

How the data were processed

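Per the labels and the study's methods, liver RNA was depleted of ribosomal RNA and sequenced as 75-base single-end reads. The authors trimmed reads with Trim Galore, mapped them to mm10 with STAR and deposited RSEM expected counts per gene symbol, not normalized. Versions and the gene annotation are not given in the sources used here. RSEM splits reads shared between genes, and 6.45% of nonzero values were not whole.

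Expected counts were rounded. Genes kept by filterByExpr (minimum count 10) were fitted with edgeR 4.0.16 in R 4.3.3 (TMM factors, quasi-likelihood test, legacy set to FALSE, robust), with Benjamini-Hochberg adjustment over 5945 genes. Normalized counts were scaled by TMM factors to the geometric mean library. Each SE was obtained from the fold change and its F statistic. The p-values measure the spread between these mice. Intervals on counts and the floor cover counting error only. Exact permutation tests (scipy 1.17.1) used unscaled counts for ratios. Correlations used log2(normalized count + 0.5). The method was tested on simulated data.

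Transcripts and positions are from GENCODE on GRCm38, promoters from RefSeq (GRCm38.p6). Named were all 10 genes, every called gene of the pathway lists, up to 2 others per list with the smallest unadjusted p, and the 3 genes most correlated with Blvrb, Fth1 and Trf. Of these, 1 gene is not reported here. The sum of both hepcidin transcripts, counts per hepatocyte marker and the levels per kilobase were added later. The members and lists were chosen with earlier results of these data known.

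Alternatives were DESeq2 1.42.0, limma-voom (limma 3.58.1), the legacy method, other scalings, filters and thresholds, a replicate block, brain markers or Xist as covariates, and leaving out mice. Scaling to hepatocyte markers was chosen after seeing the data. Mice with the same number in both genotypes are different animals.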

Additional observations from a re-analysis of the deposited data

How the results depend on the processing

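Over 21 alternatives other than thresholds, Blvrb had a log2 fold change between 1.52 and 2.48 (adjusted p 3.69e-05 to 0.417) and was called in 16. Among 227 values of the 10 genes under alternatives, 203 kept direction and side of the threshold, 3 passed it newly, 6 no longer passed it and 15 changed sign; among 318 values of the 14 other named pathway genes the numbers were 303, 5, 0 and 10. The cause was not tested for any of these.

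The main test called 50 genes higher and 5 lower. Higher genes numbered 131 by limma-voom, 12 with library size only, 79 with no filter, 18 at adjusted p below 0.01, 18 with the replicate block, 29 with the brain covariate, 27 with the Xist covariate and 11 with hepatocyte scaling. Lower genes numbered 11 by DESeq2, 12 by limma-voom, 8 by the legacy method, 2 with library size only, 10 with no filter, 29 with at least 10 counts in every library, 1 at adjusted p below 0.01, 1 with the replicate block, 2 with each covariate and 23 without p62S351E/+ mice 1 and 2. Of the 10 genes, limma-voom called 2 higher (Blvrb and Ftl1, adjusted p = 0.0189), and library size only, adjusted p below 0.01 and hepatocyte scaling called 0. Of the other pathway genes limma-voom called 1 (Ugt1a1).

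Leaving out 1 mouse gave 16 to 329 higher and 1 to 976 lower genes, 0 to 3 of the 10 genes higher and 0 to 0 lower, and 0 to 5 other pathway genes higher and 0 to 0 lower. The 5 (Cp, Fech, Fgl1, Hp and Ugt1a1), and Ftl1 and Trf, were called without p62S351E/+ mouse 3; Hp was named after its values were seen. The log2 ratio of Fth1 to Ftl1 then differed by -1.64 to -0.93, and that of Tfrc to Fth1 by 0.44 to 1.14.

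Signs changed as follows. With library size only, which put the median of all genes at -0.68, log2 fold changes were -0.094 for Tfrc, -0.46 for Slc40a1, -0.41 for Ncoa4, -0.12 for Tfr2, -0.31 for Hspa9 and -0.11 for Mafg. With hepatocyte scaling (median -0.62) they were -0.0025 for Tfrc, -0.46 for Slc40a1, -0.45 for Ncoa4, -0.070 for Tfr2 and -0.26 for Hspa9. With at least 10 counts in every library, Slc40a1 was -0.028 and Ncoa4 -0.044. With the brain covariate, Fth1 was 0.40, Trf -0.070, Slc40a1 -0.21 and Cp -0.0016, and with the Xist covariate Fth1 was 0.17. Without p62S351E/+ mouse 1, Fth1 was 0.14, and without mouse 2, Fth1 was 0.02, Slc40a1 -0.033 and Ncoa4 -0.042. Without both, Fth1 was 0.39, Trf -0.047 and Slc40a1 -0.20, and the lone mutant was then assumed to vary like the other mice. Leaving out 1 mouse gave -0.34 to 0.14 for Fth1, -0.033 to 0.49 for Slc40a1 and -0.042 to 0.39 for Ncoa4. DESeq2 put the median of all genes at 0.15 and no filter at -0.16.

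Replicate numbers did not pair the mice (correlations of same-numbered mice 0.07, -0.08 and 0.00264), and with the replicate block Blvrb had an adjusted p of 0.0493. Few counts limit Hmox1 most: DESeq2 gave it no adjusted p, and with at least 10 counts in every library neither Hmox1 nor Hamp was tested.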
